A study of Mus musculus with 12 samples.

Results

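Phase II enzymes attach a polar group to foreign or body-made compounds so that these can leave the cell, and 3 large families of them were followed in mouse liver: the glutathione S-transferases (Gst, and the membrane-bound Mgst), the UDP-glycosyltransferases (Ugt) and the sulfotransferases (Sult). The members were every probe set (a group of short oligonucleotides that reads 1 transcript) of the Affymetrix 430A array whose single gene symbol starts with Gst, Mgst, Ugt or Sult and a letter or digit. Gstz1, an enzyme of tyrosine breakdown, was left out. This gave 53 of 22626 probe sets and 40 of the 12393 genes with a symbol of their own on the array: 29 probe sets of 20 Gst and Mgst genes, 12 of 9 Ugt genes and 12 of 11 Sult genes. The choice used names only and no measured value. Probe sets that match several family genes carry several symbols, and 5 of these were left out, so the members do not cover every gene of the families. No Ugt1a gene is among the members on either array design used here.

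Livers came from mice of 10 weeks of age. Fah encodes the last enzyme of tyrosine breakdown, and a mouse without it makes toxic late products of that pathway unless it receives NTBC (nitisinone), a drug that blocks an earlier step. p21, the product of Cdkn1a, is an inhibitor of the cell cycle. The normal group on 430A held 4 livers, each of another kind: normal 1 from a wildtype mouse on water, normal 2 from a wildtype mouse on NTBC, normal 3 from a Fah knockout on NTBC and normal 4 from a Fah p21 knockout on NTBC. Fah off stands for 3 livers of Fah knockout mice 14 days after NTBC was withdrawn, and Fah p21 off for 2 livers of Fah p21 double knockout mice after the same time. On the second array design, 430 2.0, there were 2 further Fah p21 off livers (3 and 4) and 1 normal liver. That liver carries the number of normal 4 in its title and was taken to be from the same Fah p21 knockout mouse on NTBC. Strain and sex were not stated. The spread within the normal group thus contains the differences between its 4 kinds of mice. For each comparison with normal, 1 of the 4 normal livers had the genotype of the mice off NTBC.

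Glutathione transferases couple glutathione to reactive electrophiles such as those made by lipid peroxidation, and several are known targets of the stress-response factor Nrf2 (gene Nfe2l2). UDP-glycosyltransferases add a sugar, mostly glucuronic acid, to bilirubin, steroids, bile acids and drugs. Sulfotransferases add sulfate to steroids, bile acids, phenols and amines. In mouse liver many genes of the 3 families are known to differ between the sexes, among them Sult2a2, which is expressed mostly in females.

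The arrays served to check the labels and the tissue. The wildtype livers had Fah signals of 6868 and 7120.1, against 181.9 in normal 3, 233 in normal 4 and at most 114.2 in the 5 livers off NTBC. Cdkn1a has a pair of probe sets on 430A. The one ending in _a_at read 9.5 and 8.2 in the Fah p21 off livers against 990 to 1862 in the Fah off livers, whereas the other read 1828 and 2060 against 2814 to 3936, so only the first was below its range in the normal livers (14.7 to 51.4). The 11 hepatocyte markers on the array (of 12 listed) were present in each liver, with a summed signal of 144871 to 155154 in the normal group, 89168 to 98673 in Fah off and 87860.2 to 92350.4 in Fah p21 off. All 11 fell in both comparisons with normal, where 1513 (Fah off) and 1061 (Fah p21 off) of all 9195 genes tested fell. In whole liver, fewer cells of a type and less RNA per cell cannot be told apart.

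Values are the array signals on a linear scale, and changes are log2 fold changes ± SE from limma, a linear model for arrays fitted over all 15307 probe sets that passed a filter on dim signals. "Rose" and "fell" mean a Benjamini-Hochberg adjusted p under 0.05 over all of these. Of the 53 members 45 passed the filter, covering 34 of 40 genes, and 39 of the 45 did so on all 9 arrays. The other 6 were above the filter's level on some arrays only (Mgst2, the dimmer Mgst3 probe set, Sult1c2, Sult2a2, Ugt2b37 and Ugt2b38). Mgst2, Sult2a2 and the dimmer Mgst3 probe set were below that level (73.8 to 96.3) in every normal liver and entered the fit only through livers off NTBC, so they had to differ in order to be tested, and their fitted changes depend on the offset added before log2. Ugt2b38 was below the level in every liver off NTBC and entered only through normal 3 and normal 4. A gene is described by its representative, the probe set of highest mean signal over all arrays. The signal of 1 probe set was not compared with that of another.

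In Fah off against normal, 15 of the 45 members rose and 15 fell, where 35.5% of all 15307 tested probe sets changed (20.1% higher and 15.4% lower). In Fah p21 off against normal, 15 rose and 16 fell, where 28.4% of all changed (17.7% higher and 10.7% lower). Counted by gene, 11 of 34 rose and 13 fell in Fah off, and 11 rose and 14 fell in Fah p21 off. The median change of the 45 probe sets was 0.0074 in Fah off and -0.16 in Fah p21 off, beside 0.022 and 0.11 over all tested probe sets. Over 1 representative per gene it was -0.35 and -0.47 for the 34 genes, beside 0.0044 and 0.094 for all 9195 genes tested. The 3 families divided unequally. Among Gst and Mgst genes 10 rose and 8 fell of 20 in either comparison. Among Ugt genes, which include no Ugt1a gene, none rose and 4 of 8 fell. Among Sult genes 1 of 6 rose (Sult2a2), while 1 fell in Fah off and 2 in Fah p21 off. The rises in both comparisons include Mgst2, Sult2a2 and the dimmer Mgst3 probe set, which entered the fit only through livers off NTBC. Both comparisons share the normal livers and are not independent of each other. Against the genotype-matched normal liver alone 13 members rose and 7 fell in Fah off, where 16.8% of all probe sets changed (9.92% higher and 6.88% lower), and 14 rose and 4 fell in Fah p21 off, where 11.9% changed (7.33% higher and 4.59% lower). Without Fah p21 off 1 the falls in Fah p21 off numbered 10. The scaling of the arrays moved the balance of all probe sets: of those called in Fah p21 off 62.4% were higher as deposited (median change of all 0.11), 51.7% after quantile normalization (median -0.02) and 39.3% after scaling to a common median (median -0.13), beside 48.4%, 54.8% and 39.3% of the members called.

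**Figure D1:**
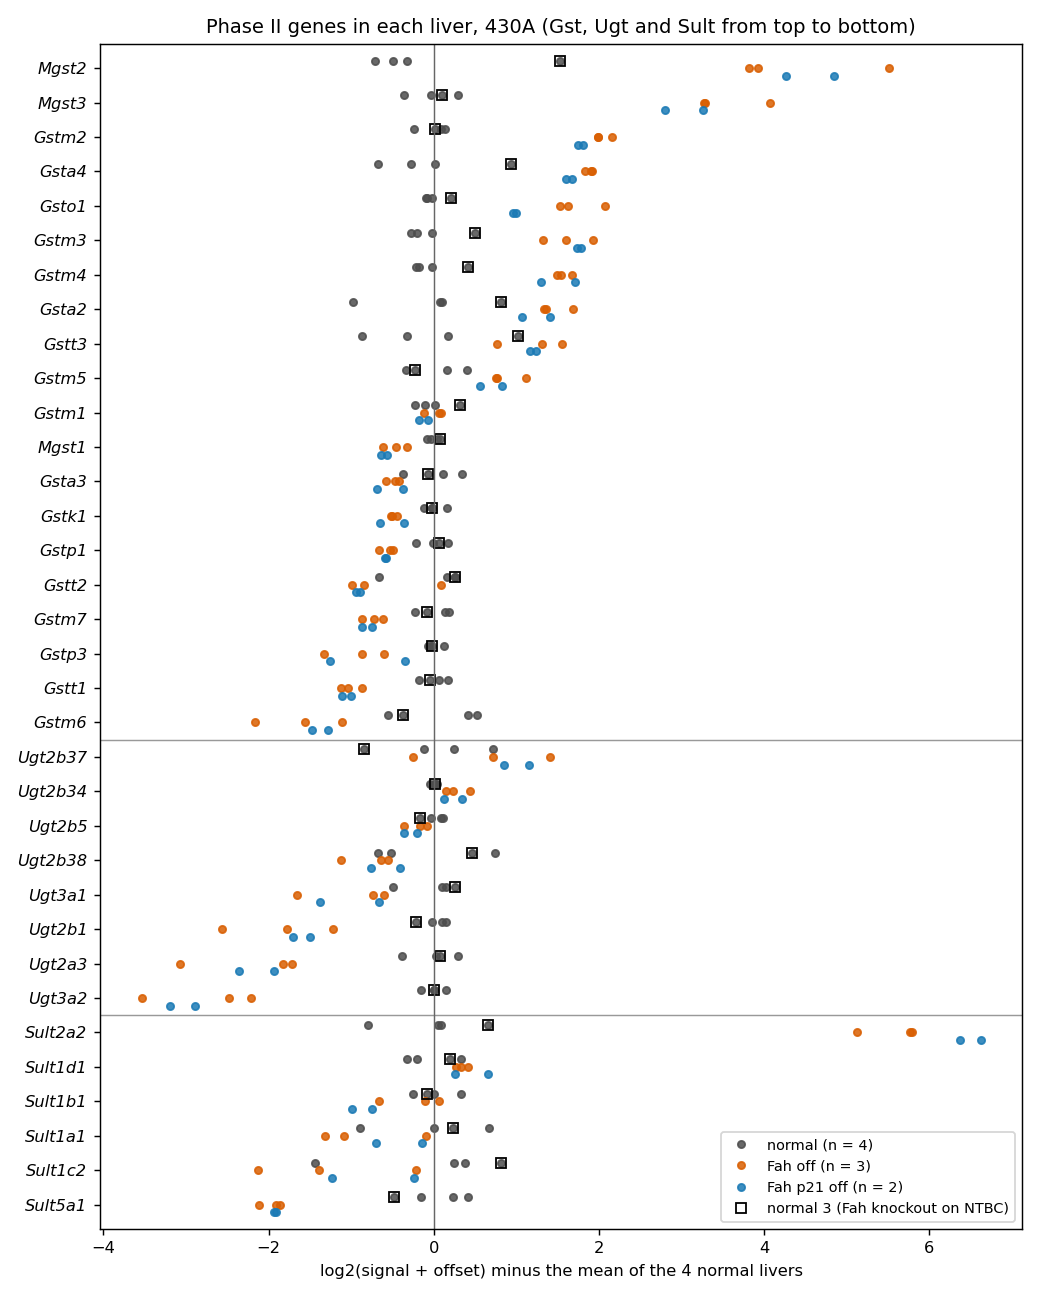
Each point is 1 liver on 430A, plotted for the 34 genes tested as log2(signal + offset) minus the mean of the 4 normal livers (x axis), with Gst and Mgst, Ugt and Sult genes in 3 blocks from top to bottom. The open squares mark normal 3; in Mgst2, Gsta4, Gsta2 and Gstt3 it lies apart from the other normal livers, on the side of the livers off NTBC.

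Promoter sequences are shown here for every gene of the Gstm cluster and of the Mgst subfamily, whose members moved in different directions; both sets were chosen after their values were seen. The mouse Gstm genes form a cluster on chromosome 3, in which the neighbours run in the order Gstm5, Gstm7, Gstm6, Gstm3, Gstm2, Gstm1 and Gstm4 by the position of their start. In both comparisons Gstm5, Gstm3, Gstm2 and Gstm4 rose, Gstm7 and Gstm6 fell, and Gstm1 did not pass. The Mgst genes lie apart from each other, and Mgst2 and Mgst3 rose while Mgst1 fell. Each line gives the 250 bases before the most upstream start of a gene, 5′ to 3′ on the gene's strand, from RefSeq on GRCm38.p6. Capitals mark matches to TGACNNNGC, the core of the antioxidant response element bound by Nrf2, or to TGAGTCA, the AP-1 site, searched on both strands. The motifs can overlap.
Gstm5 (chr3:107895604-107895853, plus strand): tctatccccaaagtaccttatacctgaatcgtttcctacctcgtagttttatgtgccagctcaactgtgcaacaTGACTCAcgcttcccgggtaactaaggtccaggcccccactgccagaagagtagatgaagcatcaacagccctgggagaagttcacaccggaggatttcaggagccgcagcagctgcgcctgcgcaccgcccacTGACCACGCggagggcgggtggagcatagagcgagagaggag
Gstm7 (chr3:107931818-107932067, minus strand): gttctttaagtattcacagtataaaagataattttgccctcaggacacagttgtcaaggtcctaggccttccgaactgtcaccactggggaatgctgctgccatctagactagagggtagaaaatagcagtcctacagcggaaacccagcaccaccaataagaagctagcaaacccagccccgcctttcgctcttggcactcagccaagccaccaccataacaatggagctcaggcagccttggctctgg
Gstm6 (chr3:107953467-107953716, minus strand): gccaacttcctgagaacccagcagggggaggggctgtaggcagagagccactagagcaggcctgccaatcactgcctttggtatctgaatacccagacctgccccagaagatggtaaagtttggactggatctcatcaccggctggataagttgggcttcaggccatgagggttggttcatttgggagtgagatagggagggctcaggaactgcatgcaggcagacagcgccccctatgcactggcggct
Gstm3 (chr3:107969175-107969424, minus strand): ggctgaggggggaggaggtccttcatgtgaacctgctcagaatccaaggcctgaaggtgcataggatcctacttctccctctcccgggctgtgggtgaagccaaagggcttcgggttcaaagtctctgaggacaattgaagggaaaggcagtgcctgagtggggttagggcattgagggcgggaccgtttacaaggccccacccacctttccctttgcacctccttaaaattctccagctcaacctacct
Gstm2 (chr3:107986421-107986670, minus strand): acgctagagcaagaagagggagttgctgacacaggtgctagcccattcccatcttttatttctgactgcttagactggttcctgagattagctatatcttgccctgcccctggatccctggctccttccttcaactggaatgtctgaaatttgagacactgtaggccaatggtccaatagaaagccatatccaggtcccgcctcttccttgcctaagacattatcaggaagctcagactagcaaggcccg
Gstm1 (chr3:108017974-108018223, minus strand): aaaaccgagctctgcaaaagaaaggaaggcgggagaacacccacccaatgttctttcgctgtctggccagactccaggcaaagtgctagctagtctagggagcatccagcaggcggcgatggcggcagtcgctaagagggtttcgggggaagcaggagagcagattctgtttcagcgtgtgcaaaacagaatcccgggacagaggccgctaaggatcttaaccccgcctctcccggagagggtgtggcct
Gstm4 (chr3:108044860-108045109, minus strand): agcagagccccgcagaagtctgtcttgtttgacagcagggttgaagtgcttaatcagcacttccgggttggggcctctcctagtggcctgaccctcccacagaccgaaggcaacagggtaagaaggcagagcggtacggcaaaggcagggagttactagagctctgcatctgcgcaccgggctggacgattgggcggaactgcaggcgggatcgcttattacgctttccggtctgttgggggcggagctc
Mgst1 (chr6:138140277-138140526, plus strand): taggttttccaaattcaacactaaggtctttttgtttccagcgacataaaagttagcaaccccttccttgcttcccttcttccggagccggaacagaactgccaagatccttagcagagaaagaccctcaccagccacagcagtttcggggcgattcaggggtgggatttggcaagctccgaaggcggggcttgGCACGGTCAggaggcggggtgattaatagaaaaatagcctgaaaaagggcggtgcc
Mgst2 (chr3:51660929-51661178, plus strand): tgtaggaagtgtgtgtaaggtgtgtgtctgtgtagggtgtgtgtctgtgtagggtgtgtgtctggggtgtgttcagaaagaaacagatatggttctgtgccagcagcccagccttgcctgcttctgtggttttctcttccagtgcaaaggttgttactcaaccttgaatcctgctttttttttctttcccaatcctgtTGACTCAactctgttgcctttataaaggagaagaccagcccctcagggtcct
Mgst3 (chr1:167393842-167394091, minus strand): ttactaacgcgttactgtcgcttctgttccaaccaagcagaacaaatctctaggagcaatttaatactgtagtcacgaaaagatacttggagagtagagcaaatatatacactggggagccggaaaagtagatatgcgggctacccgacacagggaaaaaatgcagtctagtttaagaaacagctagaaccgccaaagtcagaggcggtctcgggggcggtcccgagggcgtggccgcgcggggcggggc

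The Gstm5 window holds both motifs, the Mgst2 window an AP-1 site and the Mgst1 window an antioxidant response element core, while those of Gstm7, Gstm6, Gstm3, Gstm2, Gstm1, Gstm4 and Mgst3 hold no match. A window was found for 35 of the 40 member genes. Over all 27025 genes with a window, 10.1% held the antioxidant core and 4.43% the AP-1 site. The antioxidant core was present in 1 of 9 members that rose (Gstm5) and in 2 of 13 that fell (Gsta3 and Mgst1). The AP-1 site was present in 2 of 9 that rose (Gstm5 and Mgst2) and in 1 of 13 that fell (Gstp1). A match is a description of letters only, and binding was not measured.

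The membrane-bound Mgst2 and Mgst3, which have glutathione peroxidase activity and can make leukotriene C4, had the largest fitted changes among the transferases. Mgst2 signal was 6.6, 9.3, 67.6 and 11.7 in normal 1 to 4, 399, 369.8 and 1226 in Fah off and 506 and 764 in Fah p21 off. Each liver off NTBC was far above every normal liver, and within the normal group the Fah knockout on NTBC (67.6) was well above the other 3. The change was 4.42 ± 0.54 in Fah off and 4.55 ± 0.61 in Fah p21 off. No p-value is given, because only livers off NTBC brought Mgst2 past the filter. Since the normal signals lay below the filter's level, Mgst2 is given as at least 6.86-fold and 7.55-fold higher, the mean log2 signal off NTBC set against that level. Mgst3 read 389, 491, 429 and 307.5 in normal 1 to 4, 3949, 3935 and 6864 in Fah off and 3898 and 2821 in Fah p21 off, with changes of 3.54 ± 0.22 and 3.03 ± 0.25. Here the 4 normal livers lay close together. Mgst1, the abundant liver form of the endoplasmic reticulum and outer mitochondrial membrane, went the other way, from 11649 to 12962 in the normal livers to 8033 to 9814 in Fah off and 7905 and 8313 in Fah p21 off (-0.47 ± 0.09 and -0.60 ± 0.11). After quantile normalization the Mgst1 change was -0.04 and -0.02 and no longer passed, and against the genotype-matched normal liver alone it was -0.54 (adjusted p = 0.057) and -0.52 (adjusted p = 0.0917).

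Within the Gstm cluster, whose enzymes conjugate a broad range of electrophiles, the largest rise of a representative was that of Gstm2. Its signal was 1305, 1352.5, 1241 and 1041 in normal 1 to 4, 5539, 4906 and 4902 in Fah off and 4310.2 and 4153 in Fah p21 off. The 3 groups did not overlap, and the change from normal was 2.05 ± 0.12 (adjusted p = 7.67e-07) and 1.78 ± 0.13 (adjusted p = 8.26e-06). Gstm3 rose by 1.62 ± 0.19 and 1.75 ± 0.22 on its brighter _s_at probe set and by 2.38 ± 0.23 and 2.76 ± 0.26 on the other. Gstm4 rose by 1.57 ± 0.17 and 1.51 ± 0.19, and Gstm5, a form known from brain and testis, by 0.88 ± 0.19 and 0.69 ± 0.22. The Gstm5 rise in Fah p21 off ended as a call without Fah p21 off 1 (0.56), Fah p21 off 2 (0.82), normal 3 (0.62) or normal 4 (0.58), after scaling to a common median (0.45, adjusted p = 0.27) and after quantile normalization (0.61, adjusted p = 0.0755).

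Gstm6 and Gstm7, which stand between Gstm5 and Gstm3, fell. Gstm6 read 1278, 1186, 682 and 601 in normal 1 to 4, 405, 296 and 191 in Fah off and 358 and 312 in Fah p21 off. The wildtype livers (normal 1 and 2) were the highest, and the knockout livers on NTBC (normal 3 and 4) lay between them and the livers off NTBC. The change was -1.61 ± 0.30 and -1.38 ± 0.34; against the genotype-matched liver alone it was -1.23 (adjusted p = 0.0572) and -0.83 (adjusted p = 0.219). It also ended as a call in Fah p21 off without Fah p21 off 1 (-1.48) or Fah p21 off 2 (-1.29). Gstm7 changed by -0.74 ± 0.14 and -0.81 ± 0.16, and by -0.66 (adjusted p = 0.063) and -0.58 (adjusted p = 0.126) against the matched liver.

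Gstm1, a main mu-class form of mouse liver, has 4 probe sets and none of them passed. Its representative ends in _x_at, a type whose oligonucleotides can match other family members, and read 11848, 12793, 17206 and 14001.5 in normal 1 to 4, 14637, 12703 and 14429 in Fah off and 13188 and 12188 in Fah p21 off. The groups overlapped. The change was 0.01 ± 0.12 and -0.12 ± 0.14 as deposited, but 0.44 (adjusted p = 0.00929) and 0.48 (adjusted p = 0.0157) after quantile normalization, so the direction and the call for Gstm1 depend on the scaling. The Gstm genes are close relatives, and the signal of each may contain that of a neighbour.

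The alpha-class genes also divided. Gsta4, whose enzyme conjugates 4-hydroxynonenal from lipid peroxidation, read 618, 813, 1904 and 1000.0 in normal 1 to 4, 3747, 3532 and 3718 in Fah off and 3169 and 3023.5 in Fah p21 off. Every liver off NTBC was above every normal liver, of which normal 3 was the highest, and the change was 1.88 ± 0.29 and 1.64 ± 0.33. Gsta2 read 1249, 2592, 4342 and 2641 in the normal livers, 6336, 6254 and 7935 in Fah off and 6565 and 5179 in Fah p21 off. The wildtype mouse on water was the lowest and the Fah knockout on NTBC the highest of its normal livers. The Gsta2 change was 1.46 ± 0.32 and 1.24 ± 0.36, and 0.65 (adjusted p = 0.0793) in Fah off against the Fah knockout on NTBC alone. In Fah p21 off the Gsta2 call ended without Fah p21 off 1 (1.07) or Fah p21 off 2 (1.41), and after scaling to a common median (0.99, adjusted p = 0.0548).

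Gsta3, an abundant alpha-class form of normal liver, fell by a small amount: -0.49 ± 0.16 in Fah off (adjusted p = 0.0307) and -0.53 ± 0.18 in Fah p21 off (adjusted p = 0.044). The second Gsta3 probe set fell more, by -0.95 ± 0.19 and -0.86 ± 0.21. The call on the representative rested on single livers. It ended in Fah off without normal 1, normal 2 or any 1 of the 3 Fah off livers (-0.53 to -0.38), and in Fah p21 off without normal 1, normal 2, normal 3, Fah off 1, Fah off 2 or either Fah p21 off liver (-0.69 to -0.37). It ended too after quantile normalization (-0.24 and -0.14), without a filter or without the trend in both comparisons, and after scaling to a common median in Fah off (-0.56).

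The pi, kappa and theta classes held most of the other falls. Gstp1, the main pi-class gene of mouse liver, had signals of 12720.2 to 16589 in the normal livers, 9310 to 10424 in Fah off and 9777 and 9863 in Fah p21 off, a change of -0.56 ± 0.10 and -0.59 ± 0.12. After quantile normalization this was -0.14 (adjusted p = 0.299) and -0.03 (adjusted p = 0.886). Gstp3 read 599.5, 526, 544 and 537 in normal 1 to 4, 359, 297 and 213 in Fah off and 225 and 430.5 in Fah p21 off (-0.93 ± 0.22 and -0.80 ± 0.25). The Fah p21 off pair differed widely for Gstp3: without Fah p21 off 1 the change was -0.35 (adjusted p = 0.421), and the call ended also without Fah off 2 or any 1 normal liver (-0.82 to -0.76), without a filter or without the trend. Gstk1, the mitochondrial and peroxisomal form, fell by 0.49 ± 0.12 and 0.51 ± 0.13 on the log2 scale, the second call ending without Fah p21 off 1 (-0.37).

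Of the theta class, Gstt1 fell and Gstt3 rose. Gstt1, which acts on halogenated methanes and similar small compounds, read 3003, 3241.5, 2791 and 2558 in normal 1 to 4, 1579, 1323 and 1398.5 in Fah off and 1329 and 1431 in Fah p21 off, a change of -1.01 ± 0.12 and -1.06 ± 0.14. Gstt3 read 387, 810.2, 1458 and 570.2 in the normal livers, 2115, 1789 and 1219 in Fah off and 1614 and 1695 in Fah p21 off. Fah off 3 lay below normal 3 here, so those groups overlapped. The Gstt3 change was 1.21 ± 0.36 (adjusted p = 0.023) and 1.20 ± 0.41 (adjusted p = 0.0488), and 0.19 (adjusted p = 0.704) in Fah off against the Fah knockout on NTBC alone. Its Fah off call ended without Fah off 1 (1.04), Fah off 2 (1.16) or normal 4 (1.10), and its Fah p21 off call without normal 1, normal 2, normal 4, Fah off 1, Fah off 2 or either Fah p21 off liver (0.91 to 1.26), and after scaling to a common median (0.96, adjusted p = 0.0948), without a filter or trend (1.20 in either), or with no offset (1.21). Gstt2 did not pass (-0.58 ± 0.28 and -0.92 ± 0.32); normal 4 (799.8) lay near the livers off NTBC and the other normal livers at 1417 to 1515. Without normal 4 Gstt2 passed at -0.80 and -1.14, without Fah off 3 at -0.92 in either comparison, and in Fah p21 off without Fah off 2 at -0.92 too.

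Gsto1, of the omega class, acts mostly as a reductase, for example of dehydroascorbate. It read 1414.5, 1424, 1754 and 1492 in normal 1 to 4, 4700.3, 4371 and 6429 in Fah off and 3018 and 2945 in Fah p21 off. The 3 groups did not overlap, with the double knockout between normal and the single knockout. The change was 1.74 ± 0.15 (adjusted p = 6.79e-06) and 0.97 ± 0.16 (adjusted p = 0.00132), and its _x_at probe set rose by 1.32 ± 0.16 and 1.01 ± 0.18. On that _x_at probe set the knockout groups off NTBC overlapped, with 3141, 2609.7 and 3358 in Fah off and 2612.3 and 2263 in Fah p21 off.

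**Figure D2:**
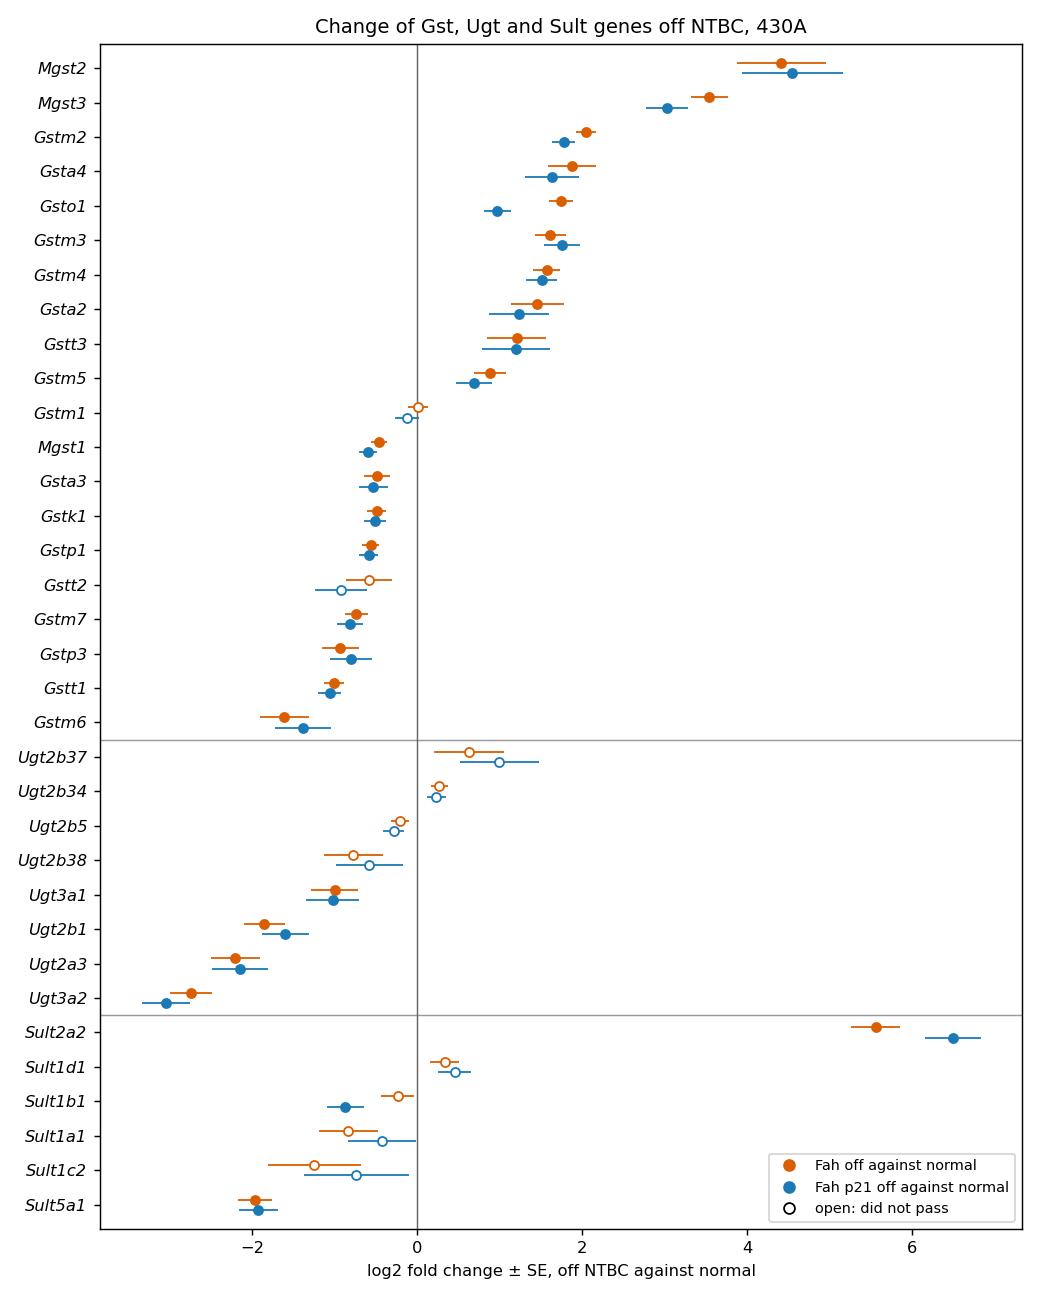
Log2 fold change ± SE (x axis) of the 34 genes tested on 430A, for Fah off (n = 3) and Fah p21 off (n = 2) against normal (n = 4), with filled points for genes that passed and open points for those that did not. Among Gst and Mgst genes 10 lie to the right and 8 to the left as filled points, whereas no Ugt gene has a filled point to the right.

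The normal livers were not alike for these genes. Normal 3, the Fah knockout on NTBC, was the highest normal liver for 8 of the 11 genes that rose, and normal 4, the double knockout on NTBC, the lowest for 8 of the 13 that fell in Fah off and 9 of the 14 that fell in Fah p21 off. Whether normal 3 and normal 4 were the extreme livers as often over all genes was not tested. With 1 mouse of each kind, genotype, drug and mouse cannot be told apart in these values. Against the genotype-matched mouse on NTBC alone, all 24 genes that had passed in Fah off and all 25 in Fah p21 off kept their sign, and 15 in either comparison passed. A control of 1 liver has a wider error, so a lost call need not mean a smaller change. Those that no longer did were Gsta2, Gsta3, Gstk1, Gstm6, Gstm7, Gstp3, Gstt3, Mgst1 and Ugt3a1 in Fah off, and Gsta3, Gstk1, Gstm6, Gstm7, Gstp3, Mgst1, Sult1b1, Ugt2a3, Ugt2b1 and Ugt3a1 in Fah p21 off. The change of Ugt3a1 was larger than before (-1.25 and -1.17), as were those of Mgst1 in Fah off (-0.54) and Ugt2b1 in Fah p21 off (-1.70). Gstp3 (-0.92 and -0.77) and, in Fah off, Gstk1 (-0.47) were about as large. Others were smaller, such as Gsta3 at -0.41 and -0.16 and, in Fah p21 off, Gstk1 at -0.39 and Sult1b1 at -0.62.

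Among the UDP-glycosyltransferases 4 genes fell, Ugt3a2 the most and Ugt3a1 the least in both comparisons. Ugt3a enzymes are known to transfer sugars other than glucuronic acid. Ugt3a2 read 4532.5, 5013.5, 4514 and 4041 in normal 1 to 4, 962.5, 801 and 380.5 in Fah off and 484 and 598 in Fah p21 off. No liver off NTBC came near the normal range, and the change was -2.74 ± 0.26 (adjusted p = 1.55e-05) and -3.04 ± 0.29 (adjusted p = 3.54e-05). Ugt3a1 fell by 1.00 ± 0.28 and 1.02 ± 0.32, and its _s_at probe set by -1.20 ± 0.26 and -1.25 ± 0.30. The Ugt3a1 call ended without Fah off 3 in Fah off (-0.67), and in Fah p21 off without Fah p21 off 1 (-0.67), normal 2 (-0.99), normal 3 (-0.94) or normal 4 (-0.97), and without a filter.

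Ugt2a3, which glucuronidates bile acids, read 2682, 3233, 2775 and 2022 in normal 1 to 4, 798, 738 and 305 in Fah off and 508 and 682 in Fah p21 off, a change of -2.20 ± 0.30 and -2.15 ± 0.34. Ugt2b1 read 7778, 6949, 6053 and 7542.5, then 3022, 2039.6 and 1184.5 in Fah off and 2494 and 2161 in Fah p21 off, a change of -1.86 ± 0.25 and -1.60 ± 0.28. In both genes, as in Ugt3a1 and Ugt3a2, the lowest of the 3 Fah off livers was Fah off 3. Against the double knockout on NTBC alone the changes in Fah p21 off were -1.76 for Ugt2a3 (adjusted p = 0.0694) and -1.70 for Ugt2b1 (adjusted p = 0.0505).

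The other Ugt2b genes, which act on steroids, bile acids and drugs, did not pass on their representatives. Ugt2b5, with signals of 7315 to 8850.1 in the normal livers and 6375 to 7717 off NTBC, changed by -0.20 ± 0.11 and -0.29 ± 0.12, values that turned to 0.12 and 0.21 after quantile normalization. Ugt2b37 gave 0.62 ± 0.42 and 1.00 ± 0.48. Ugt2b38 gave -0.77 ± 0.36 and -0.58 ± 0.40. Without normal 2 it fell by 1.00 in Fah off (adjusted p = 0.0497). For Ugt2b34 the brighter probe set, of _s_at type, gave 0.27 ± 0.10 and 0.23 ± 0.12, whereas the other rose (0.58 ± 0.15 with adjusted p = 0.00945, and 0.58 ± 0.17 with adjusted p = 0.0236). Ugt2b34 on the brighter probe set passed after quantile normalization (0.51 and 0.63) and, in Fah off, without Fah off 3 (0.33), and was -0.01 in Fah p21 off after scaling to a common median. Ugt8a, the ceramide galactosyltransferase of myelin, was below the filter on both its probe sets, at 9.7 to 25.9 in the normal livers and 11.3 to 23.0 off NTBC.

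**Figure D3:**
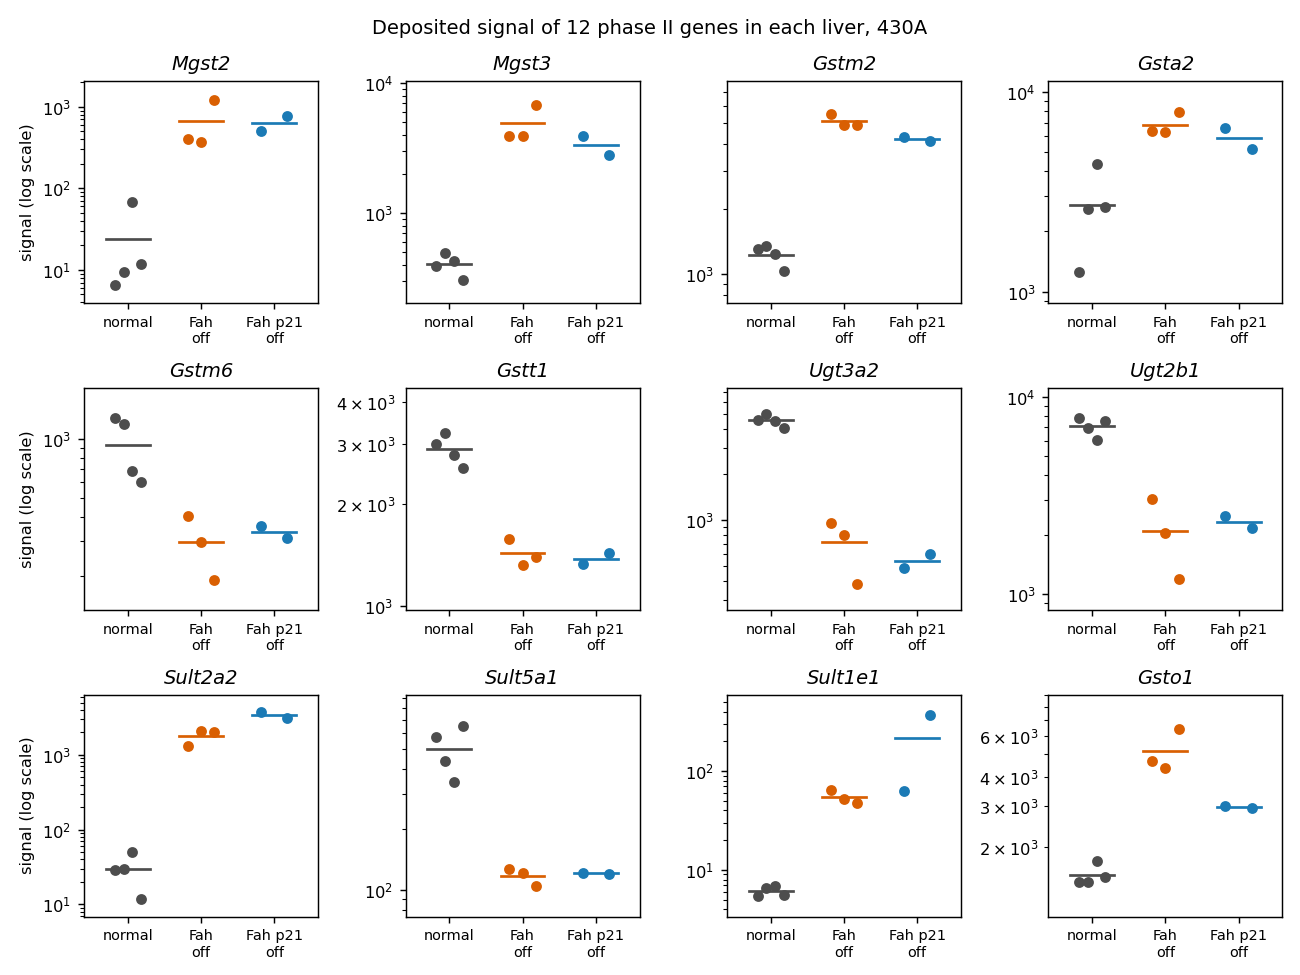
Deposited signal on a log axis (y) in each liver on 430A for 12 genes, by group (x: normal, n = 4; Fah off, n = 3; Fah p21 off, n = 2); points are livers in the order of their numbers and lines are group means. Mgst2 and Gsta2 show the spread among the normal livers, Ugt3a2 and Sult5a1 a fall with no overlap, Sult2a2 the largest fitted change, and Sult1e1 the pair of Fah p21 off livers far apart.

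Sult2a2, a hydroxysteroid sulfotransferase that acts on steroids and bile acids, had the largest fitted change of all members. Its signal was 29.1, 29.9, 49.3 and 11.8 in normal 1 to 4, 1300.3, 2068 and 2030.1 in Fah off and 3685 and 3111 in Fah p21 off. No group overlapped another, and the double knockout livers lay above the single knockout livers. The change was 5.56 ± 0.29 and 6.50 ± 0.33. No p-value is given, because only livers off NTBC brought Sult2a2 past the filter. All 4 normal livers were below the filter's level, against which Sult2a2 was at least 21.4-fold higher in Fah off and 41.1-fold in Fah p21 off. Other Sult2a genes are close relatives of Sult2a2, and whether this probe set also reads some of them was not tested. Sult5a1 fell: it read 574, 437, 346 and 656 in normal 1 to 4, 127, 122 and 105 in Fah off and 122 and 120.5 in Fah p21 off (-1.97 ± 0.21 and -1.93 ± 0.23). The livers off NTBC agreed closely for Sult5a1, while the normal livers spread from 346 to 656.

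Of the Sult1 genes, Sult1b1, which sulfates thyroid hormones and phenols, read 441, 554.5, 413 and 368 in normal 1 to 4, 458, 408 and 274 in Fah off and 257 and 215 in Fah p21 off. It did not pass in Fah off (-0.24 ± 0.20) and fell in Fah p21 off (-0.87 ± 0.23, adjusted p = 0.0143), a call that ended without Fah p21 off 2 (-0.75). The difference between both states is given with the other double knockout values. The phenol sulfotransferase Sult1a1 gave -0.83 ± 0.36 and -0.42 ± 0.41, and Sult1c2 -1.25 ± 0.56 and -0.74 ± 0.64, neither of which passed. Both were low in normal 4: Sult1a1 read 1546 there and 2865 to 4552 in the other normal livers, and Sult1c2 read 40.6 against 152.1 to 229.7. Without normal 4 they passed in Fah off at -1.13 and -1.72. Sult1a1 passed in Fah off also without Fah off 3 (-1.20), and Sult1c2 without Fah off 1 (-1.76). Against the double knockout on NTBC alone their changes in Fah p21 off were 0.46 and 0.70, of the opposite sign. Sult1d1, which acts on amines, gave 0.34 ± 0.18 and 0.45 ± 0.20 and did not pass.

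Sult1e1, the estrogen sulfotransferase, was below the filter but not at the same level in all groups. It read 5.4, 6.6, 6.9 and 5.6 in normal 1 to 4, 64.2, 51.8 and 47.4 in Fah off and 62.7 and 369 in Fah p21 off. Every liver off NTBC was above every normal liver, and of these Fah p21 off 2 alone read above 100. In the fit without a filter Sult1e1 passed in both comparisons (adjusted p = 0.00824 and 0.00122), but no fold is given because the normal and the Fah off livers were all below the filter's level. Of the other genes below the filter, Sult4a1 passed in that fit in Fah off (adjusted p = 0.0444) but not in Fah p21 off (adjusted p = 0.232). Sult4a1 read 9.1 to 40.6 in the normal livers, 41.7 to 49.5 in Fah off and 34.4 and 37.4 in Fah p21 off. All of these signals were below the filter's level, so no fold is given. Sult1c1, Sult2b1, Sult3a1 and Ugt8a did not pass in either comparison.

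The comparison of Fah p21 off with Fah off asked whether the loss of p21 changed these genes once NTBC was withdrawn. None of the 45 members passed, where 0.0392% of all tested probe sets did (6 of 15307, with 0.0261% higher and 0.0131% lower). That background was 1 without any 1 of the normal or Fah off livers, 2 without Fah p21 off 2 and 80 without Fah p21 off 1, and no member passed in any of these fits. At an unadjusted p under 0.05 stood 3 of the 34 genes (8.82%), beside 8.06% of all tested probe sets. The 3 were Gsto1, lower in the double knockout by -0.77 (95% interval -1.15 to -0.39, adjusted p = 0.177 by limma), Sult2a2, higher by 0.94 (0.17 to 1.71), and Sult1b1, lower by -0.64 (-1.16 to -0.11), both with adjusted p = 0.511. The _x_at probe set of Gsto1 gave -0.31 (adjusted p = 0.715 by limma), and its groups overlapped. On the representatives of the 3 genes the livers of the groups did not overlap, as was also the case for Gsta4, Gstm2 and Mgst3, each lower in the double knockout (-0.24, -0.27 and -0.51). These 6 of 34 genes stand beside 29.1% of all 9195 genes tested whose groups did not overlap (18.2% higher and 10.9% lower), and are no larger a share than that background. The 95% interval lay within 1 log2 unit of 0 for 21 of 34 genes and within 0.5 for 10, so for the other 13 a difference larger than 1 unit was within the interval. Mgst2 (-1.29 to 1.56) and Sult1c2 (-0.96 to 1.98) had the widest of these intervals. A missing call thus does not show that the genotypes were alike, and the group of 2 livers limits what could be found.

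**Figure D4:**
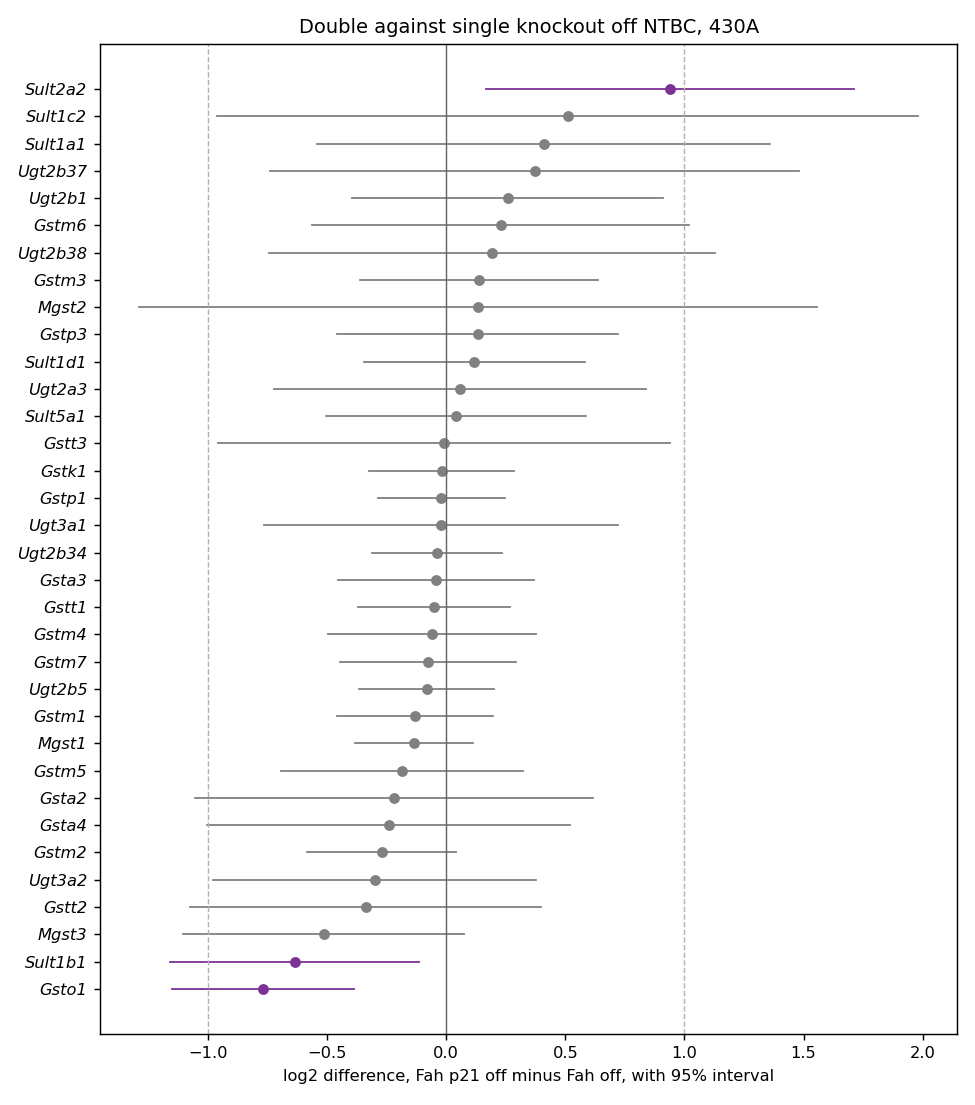
Difference of Fah p21 off (n = 2) minus Fah off (n = 3) on the log2 scale (x axis) with its 95% interval for the 34 genes tested on 430A; dashed lines stand at -1 and 1, and genes with an unadjusted p under 0.05 are drawn in purple. Gsto1 and Sult1b1 at the bottom and Sult2a2 at the top are the only intervals that leave out 0.

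The 430 2.0 arrays gave further Fah p21 off livers (3 and 4) against 1 normal liver. All 53 members were present there, and 8 more probe sets brought 7 more genes (Gstcd, Gsto2, Gstt4, Sult2a8, Sult6b1, Ugt2b35 and Ugt2b36). Of 51 members tested, 11 rose and 10 fell, where 11.5% of 26925 probe sets changed (7.71% higher and 3.8% lower). The fit had 1 residual degree of freedom, so its p-values lean on the spread that limma borrows from other probe sets, and they cover no spread among normal mice. The rises include Sult1e1, which, like the dimmer Mgst3 probe set, was below the filter's level (34.2) in the normal liver. Both entered the fit only through livers off NTBC.

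Sult2a2 again had the largest fitted change, from 40.4 in the normal liver to 8068 and 11245 in Fah p21 off 3 and 4 (7.75 ± 0.28). Mgst2 went from 86.9 to 1662 and 1870.2 (4.28 ± 0.26), Mgst3 from 241 to 2820.0 and 4192 (3.81 ± 0.30) and Gstm2 from 2068 to 11318 and 10533 (2.40 ± 0.22). Gsta4 (1.54), Gstm4 (1.49), Gstm3 (1.34) and Gstt3 (1.34) rose too. Sult1e1, dim on 430A, read 3.6 in the normal liver and 182 and 556 in the others. Only the livers off NTBC brought it past the filter, so no p-value is given. Against the filter's level of 34.2 in the normal liver Sult1e1 was at least 9.31-fold higher. Gsta2 (0.66) and Gstm5 (0.46) did not pass. For Gsto1 the _x_at probe set, brighter on this design, gave 0.97 and did not pass, while the other rose (0.87).

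The falls of the Ugt genes were seen again: Ugt3a2 (-3.20), Ugt3a1 (-2.65), Ugt2a3 (-2.30) and Ugt2b1 (-1.67). Gstt1 (-1.11), Gstm6 (-1.19) and Sult5a1 (-3.56) fell as well. Ugt2b38, which had not passed on 430A, fell from 568 to 34.8 and 41.1 (-3.78 ± 0.42). The falls of Ugt2b38 and Sult5a1 here rest on a single control, taken to be normal 4. On 430A normal 4 was the highest normal liver for both, with Ugt2b38 at 73.2, 64.6, 155.1 and 189.5 in normal 1 to 4. The largest fall was that of Sult2a8, a bile acid sulfotransferase that 430A does not read: 15771 in the normal liver against 634 and 1433 (-4.04 ± 0.44, adjusted p = 0.00221). Thus 2 members of the Sult2a group moved in opposite directions on the same arrays. Gstp1 (-0.12), Mgst1 (-0.09), Gsta3 (-0.13) and Gstp3 (-0.22) fell in Fah p21 off on 430A and did not pass here. The same held for Gstm7 (-0.93, adjusted p = 0.0575), Sult1b1 (-1.03, adjusted p = 0.0666) and Gstk1 (-0.62, adjusted p = 0.164), whose changes here were no smaller than on 430A. Of the genes read on this design alone, Gstcd (0.96), Gsto2 (0.86), Ugt2b35 (0.10) and Ugt2b36 (-0.11) did not pass, and Gstt4 and Sult6b1 were below the filter.

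**Figure D5:**
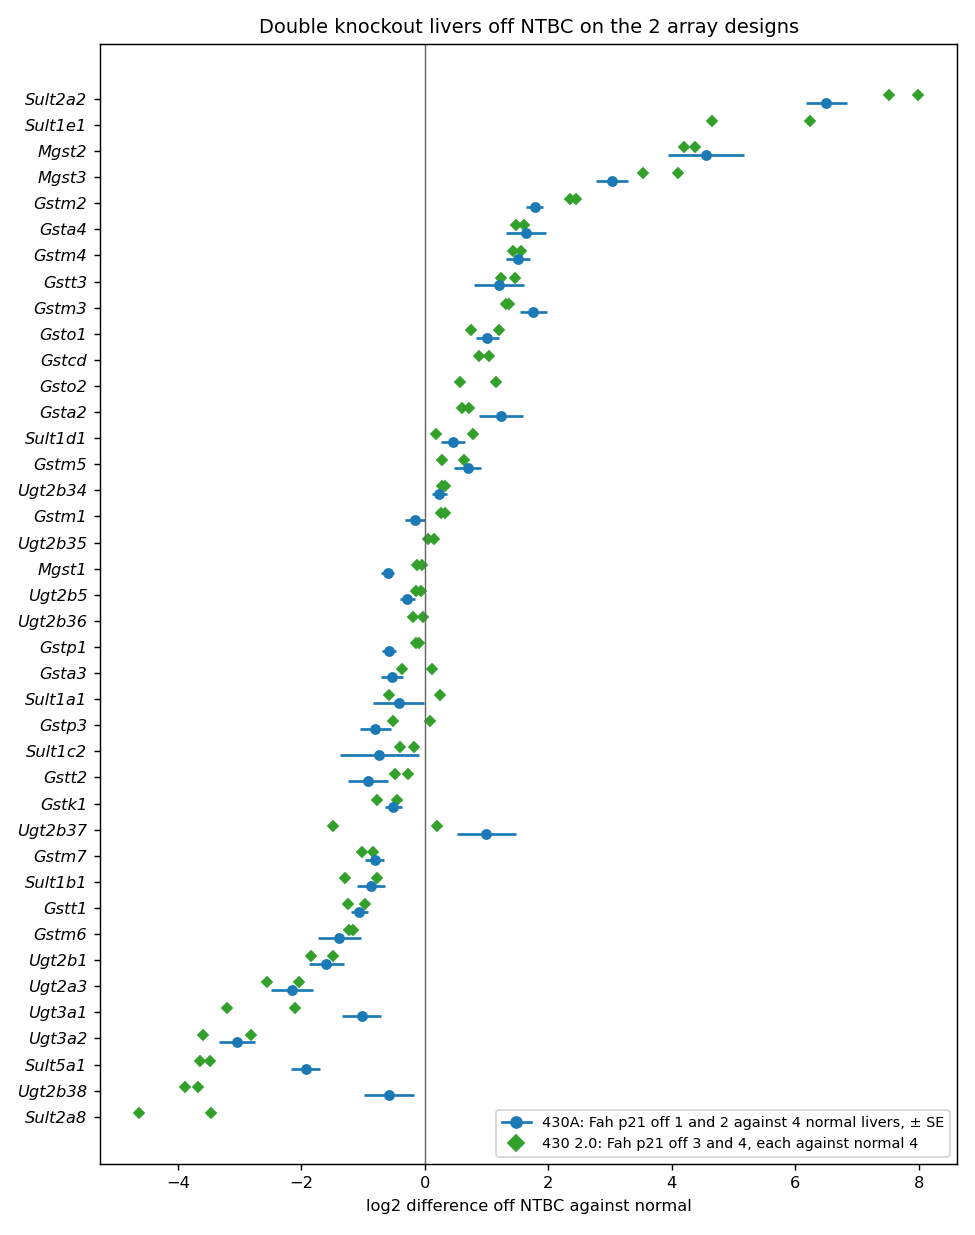
Log2 difference off NTBC against normal (x axis) for the genes tested on 430 2.0: circles are Fah p21 off 1 and 2 against the 4 normal livers on 430A, ± SE, for the same probe set where it was tested there, and diamonds are Fah p21 off 3 and 4 on 430 2.0, each set against normal 4. Sult2a2 and Sult2a8 form the ends of the range, and Ugt2b38, Ugt3a1 and Sult5a1 lie further to the left on 430 2.0.

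Genes that supply, use or carry the substrates of these enzymes were read from lists, by representative. The 2 counts are given for Fah off and Fah p21 off. Counts of these and the later lists stand beside 1814 rises and 1513 falls among all 9195 genes tested in Fah off. In Fah p21 off there were 1640 rises and 1061 falls among the same genes. The glutathione list holds genes of synthesis and supply, but also peroxidases, which use glutathione, and genes of its breakdown. Of its 12 tested genes, 9 rose and 1 fell in either comparison (2 fell in Fah off without normal 2 or Fah off 1). The largest rises were those of Gpx2 (5.37 ± 0.21 and 4.84 ± 0.24), a glutathione peroxidase, the cystine importer gene Slc7a11 (3.97 ± 0.31 and 3.60 ± 0.35) and Gpx3 (3.03 ± 0.36 and 2.58 ± 0.41). The counts and medians of this list are thus not those of supply alone. Of 9 genes of glucuronic acid supply, 5 and 4 rose and 1 fell, among them Ugdh, which makes UDP-glucuronic acid (1.00 ± 0.12 and 0.90 ± 0.13), and Gulo, the last enzyme of ascorbate synthesis from glucuronic acid, which fell (-1.61 ± 0.27 and -2.20 ± 0.31). Leaving out Fah p21 off 1 left 1 rise of this list in Fah p21 off, and leaving out normal 3 gave 2 falls in Fah off. Of 9 genes of sulfate donor supply, 1 rose and 4 fell, with falls of the sulfate transporter gene Slc26a1 (-1.92 ± 0.22 and -2.38 ± 0.25) and of Cdo1, which starts the breakdown of cysteine to sulfate (-1.44 ± 0.12 and -1.48 ± 0.14). The single rise ended as a call in Fah off without any 1 liver other than normal 4, and in Fah p21 off without Fah p21 off 1. The median changes of the 3 lists were 1.25 and 1.01, 0.59 and 0.61, and -0.38 and -0.32, in that order, beside 0.0044 and 0.094 over all genes tested. Against the genotype-matched liver alone, 2 genes of glucuronic acid supply rose in Fah off and 1 in Fah p21 off, the falls of the glutathione list and the rises of the sulfate list ended as calls in both comparisons, the Gulo fall ended in Fah off, and 2 sulfate genes fell in Fah p21 off.

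Of 19 other conjugating and detoxifying enzymes, 5 rose and 8 fell in Fah off, and 5 rose and 6 fell in Fah p21 off. The carbonyl reductase gene Cbr3 had the largest rise (6.53 ± 0.42 and 6.22 ± 0.48), and the methyltransferase gene Inmt the largest fall (-3.94 ± 0.25 and -4.04 ± 0.29). Without Fah off 2 or Fah off 3 the falls in Fah off numbered 5, and without Fah p21 off 1 the rises in Fah p21 off numbered 3; against the genotype-matched liver alone 3 rose and 3 fell in either comparison. Of 9 efflux transporter genes, 5 rose and 1 fell in either comparison, with Abcb1b up (3.65 ± 0.27 and 3.62 ± 0.31) and Abcc6 down (-2.91 ± 0.30 and -2.75 ± 0.35). Whether each of them carries conjugates was not tested. The median change was -0.54 and -0.49 for these enzymes and 0.56 and 0.57 for the transporters, of which 3 rose in Fah p21 off against the matched liver alone.

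Of 19 tested regulators of phase II genes, 7 rose and 6 fell in Fah off, and 2 rose and 5 fell in Fah p21 off; without Fah p21 off 1 or Fah p21 off 2 the rises numbered 1, and without Fah p21 off 2 the falls 3. Against the genotype-matched liver alone 3 rose in Fah off and 1 in Fah p21 off. Their median change was 0.21 and 0.24. The share of regulators that rose in Fah p21 off was no larger than over all genes tested (1640 of 9195). Nfe2l2 rose in both (1.29 ± 0.17 and 1.40 ± 0.19), and so did Mafk, a small partner protein of Nrf2 (2.27 ± 0.47 and 1.90 ± 0.53). The Mafk call in Fah p21 off ended without Fah p21 off 1 (1.70) or Fah p21 off 2 (2.11). Nr1i3, the gene of the xenobiotic sensor CAR, fell (-0.95 ± 0.17 and -1.27 ± 0.20), as did Rxra, its partner receptor (-1.51 ± 0.20 and -1.47 ± 0.23). Nr1i2, the gene of the sensor PXR, did not pass (0.24 ± 0.24 and 0.25 ± 0.27). Ahr, the dioxin receptor gene, rose in Fah off (0.88 ± 0.14) and did not pass in Fah p21 off (0.26 ± 0.16); the difference between them was -0.62 ± 0.17 with an adjusted p of 0.281.

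Since several members are known to differ between the sexes, sex-biased liver genes were read beside them. All 9 male-biased genes tested fell in both comparisons, with a summed signal of 34024 to 48799 in the normal livers, 8992 to 12225 in Fah off and 7604 to 10742 in Fah p21 off. Of the 9 female-biased genes on the array 3 were bright enough to test, and 1 rose in Fah off (Fmo2, 0.96 ± 0.28) and 2 in Fah p21 off (Fmo2, 1.21 ± 0.32, and Cyp17a1, 1.03 ± 0.34). These 3 calls depended on single livers: the Fmo2 call ended without normal 2 (0.88) or Fah off 2 (0.57) in Fah off, and without Fah p21 off 1 (1.31) or Fah p21 off 2 (1.10) in Fah p21 off. The Cyp17a1 call ended without either Fah p21 off liver, either of Fah off 1 and 2, or normal 1, 3 or 4 (0.68 to 1.37). None of 4 sex-linked transcripts passed. The part of these genes' changes in those of Sult2a2, Sult1e1 or the Ugt genes was not tested.

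Markers of other liver cells were read from lists too. Over all 9195 genes tested 1814 rose and 1513 fell in Fah off, and 1640 rose and 1061 fell in Fah p21 off. Of 12 cholangiocyte markers 9 were on the array and all 6 tested rose in both comparisons, with a summed signal of 229.1 to 409 in the normal livers, 1782 to 1862 in Fah off and 1642 to 2681 in Fah p21 off. In no normal liver was that sum high enough for all 6 to reach the filter's level (73.8 or more). Cholangiocyte markers may thus have entered the fit only through livers off NTBC, which would fix their direction. Which of them did so was not tested. Of 11 macrophage markers tested 4 rose in Fah off and 6 in Fah p21 off (summed signal 6009 to 10966, 9858 to 12239 and 12929.9 to 13785). Of 12 stellate cell markers 3 and 7 rose (4787 to 5875, 6810.3 to 9312 and 9637 to 11079). Of 4 erythroid markers tested, 3 and 2 fell. Of 9 endothelial markers tested 1 rose in each comparison, and no lymphocyte, neutrophil, kidney, intestine, adipose or pancreas marker passed. No marker had a signal of 0. The part of these cell types in the changes of the members was not tested.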

How the data were processed

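The authors deposited 1 intensity signal for each probe set of an array, linear in scale and made with MAS5 in GCOS 1.4.0.036 per the submitters' processing notes. Trimmed means of 347.5 to 348.8 over the 430A arrays show a common scaling. The table of each design was scaled and tested on its own.

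Before log2 was taken, an offset of 9.9 (430A) or 3.8 (430 2.0), the 10th percentile of a table's signals, was added, which understates changes of dim probe sets. The 64 control probe sets were left out. The filter kept probe sets that reached the 40th percentile of the array in 2 or more arrays, which left 15307 for 430A and 26925 for 430 2.0. One limma fit (3.58.1, R 4.3.3, with the intensity trend, 6 residual degrees of freedom) covered the 430A arrays, and p-values were Benjamini-Hochberg adjusted over every probe set that entered. Figures were drawn with matplotlib 3.10.9.

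Symbols came from the platform annotation; all 40 Entrez identifiers were found in the gene table of GRCm38.p6. Named are, per family and direction, up to 10 genes whose representative passed, genes below the filter, and, of each related list, genes among the 3 largest changes that passed, beside 4 regulators. Values per liver are given for the largest change of each subfamily; those of other genes were added after the values were seen. Members and lists were chosen with earlier results of these data known. The titles call the arrays biological replicates, and their number limits the precision. Of 36 pairs of arrays none shared over 0.407% identical signals. Alternatives were other filters, offsets and scalings, limma without the trend, a replicate block, the genotype-matched liver as control, other choices of probe sets per gene, and leaving out each liver.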

Additional observations from a re-analysis of the deposited data

Results flagged for a closer look

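Gstt2 was flagged because 1 normal liver stood apart from the other 3. On the log2(signal + offset) scale its gap to the nearest liver was 0.895 of the range of the group. Normal 4, the double knockout on NTBC, read 799.8, and the other normal livers 1417 to 1515. The 34 genes tested were searched in the normal group, and chance flags about 1 in 20 groups.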

How the results depend on the processing

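Among the genes of the 3 families that had passed against normal on 430A, none changed sign under any alternative run; single genes were not followed over alternatives on 430 2.0. The genotype-matched liver as the only control left 7 members lower of 2572 probe sets called in Fah off, and 4 of 1824 in Fah p21 off. Leaving out 1 liver gave 10 to 17 members lower and 2533 to 4663 probe sets called in Fah p21 off, and 1 to 80 called in Fah p21 off against Fah off. That last count was 1 with the filter on mean signal, 1 with no offset, 14 with an offset at the 25th percentile, 3 after scaling to a common median and 13 without the trend. On 430 2.0 no filter gave 5 members higher and 5 lower (1002 called in all), quantile normalization 18 higher, scaling to a common median 7 higher, and no trend 7 higher and 4 lower (1225 in all); leaving out a liver there leaves no residual degree of freedom, so no test was made. Same-numbered arrays of different groups did not deviate together (correlations of -0.28 to 0.07). With the number as a replicate block 14 members rose and 18 fell in Fah off, 11 and 15 in Fah p21 off, and 1 probe set but no member was called in Fah p21 off against Fah off. Signs turned for genes that had not passed. Gstm1 in Fah off was -0.065 after scaling to a common median, -0.31 with the matched control and -0.067 to 0.11 with 1 liver left out, and in Fah p21 off 0.48 after quantile normalization. Ugt2b5 was 0.12 and 0.21 after quantile normalization, and Ugt2b34 -0.011 in Fah p21 off after scaling to a common median. With the matched control Sult1a1 was 0.46 and Sult1c2 0.70 in Fah p21 off, and Nr1i2 -0.23 in Fah off; Nr1i2 was -0.16 to 0.65 in Fah p21 off with 1 liver left out. The causes were not tested. For the related lists the alternatives were added after the data were seen.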
